A study of Mus musculus with 16 samples.

Results

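The cholesterol synthesis and SREBP2 genes are 29 of the 24940 genes counted in mouse terminal ileum. They comprise 19 synthesis enzymes, 7 genes of sterol sensing and SREBP2 activation, and 3 further genes linked to SREBP2. The enzymes lead from acetyl-CoA to cholesterol, except Ggps1 (geranylgeranyl diphosphate synthase), which lies on an isoprenoid branch. The 29 were chosen by gene symbol from the pathway and not by a threshold on any measured value, but the choice was made with earlier results of these counts known, among them higher Hsd17b7 in LKO males than in LKO females. All 29 were found in the table and all 29 passed the filter on low counts in every comparison.

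The study asked how deletion of Bcl6 in the liver affects bile acid signaling, and poly(A) RNA was sequenced from the ileum of 16 C57BL/6 mice. Bcl6fl/fl mice (WT) have both alleles of Bcl6, which encodes a transcriptional repressor, flanked by loxP sites and carry no recombinase. Bcl6LKO mice (LKO) carry the same floxed alleles together with an albumin-Cre transgene that removes Bcl6 from hepatocytes, and so no deletion is designed for the ileum itself. Each of the 4 groups (WT and LKO of either sex) had 4 animals. The labels used here give neither the age nor the feeding state of an animal, and the study's methods describe mice that were fed freely or fasted for a few hours.

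Cells make cholesterol from acetyl-CoA through mevalonate, isoprenoid diphosphates, squalene and lanosterol. The transcription factor SREBP2 drives most of these genes: when sterols are low in the endoplasmic reticulum, the escort protein SCAP carries SREBP2 to the Golgi, where a pair of proteases release its active domain, and when sterols are high, INSIG proteins hold SCAP back. In the intestine this pathway runs beside the uptake of dietary and biliary cholesterol, and bile acids are needed for that uptake.

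The counts of 15 libraries summed to between 15.7 and 20.5 M, and those of female LKO replicate 1 to 60.3 M. The members had between 133 and 22451 counts in any library and together took 0.288% to 0.424% of a library's counts. Values below are CPM, the counts per 1 M counts of a library, on library sizes scaled by trimmed mean of M-values. Fold changes and p-values come from the quasi-likelihood test of edgeR, adjusted over all genes tested (15169 to 15598 by comparison), and a gene is called at an adjusted p below 0.05. Each library carries its own number in its title and was treated as 1 animal; the p-values measure the spread between these libraries. Ileal Bcl6 was present in every library, at 9.24 to 17.9 CPM in WT and 15.2 to 26.1 CPM in LKO, which is no check of the deletion in liver. Female LKO replicates 2 and 3 and male WT replicate 2 stood apart by high B cell markers, and counts without them are given after the comparisons. Markers of enterocytes summed to between 4790 and 7170 CPM, whereas those of hepatocytes summed to at most 8.82 CPM. In whole ileum, fewer cells of a type and less RNA per cell cannot be told apart.

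Promoter sequence is shown for 4 members that passed the test in one of the comparisons described after it, so that the elements SREBP2 and its partners are known to use can be seen. SREBP2 binds sterol regulatory elements and usually acts with the factors NF-Y and Sp1. The sequences are the 250 bases before the transcription start, 5′ to 3′ on the gene's strand, taken from RefSeq on GRCm38.p6. Capitals mark matches on either strand to the sterol element TCACNCCAC, the NF-Y box CCAAT, the Sp1 box GGGCGG and the E-box CACGTG, and none of these matches overlapped another. Hmgcs1 lies at chr13:119690101-119690350 (plus strand), Lss at chr10:76531355-76531604 (plus), Hsd17b7 at chr1:169969206-169969455 (minus) and Dhcr7 at chr7:143829964-143830213 (plus), the last of 3 start sites listed for that gene. The start site that matches the deposited gene model of Dhcr7 is another one, with its 250 bases at chr7:143822917-143823166, where 1 Sp1 box and no NF-Y box was found.

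Hmgcs1: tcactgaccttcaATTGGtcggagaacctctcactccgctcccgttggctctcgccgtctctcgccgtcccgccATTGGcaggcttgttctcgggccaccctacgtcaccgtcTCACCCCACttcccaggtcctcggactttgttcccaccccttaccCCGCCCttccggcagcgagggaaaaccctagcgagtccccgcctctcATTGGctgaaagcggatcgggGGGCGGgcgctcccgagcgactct

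Lss: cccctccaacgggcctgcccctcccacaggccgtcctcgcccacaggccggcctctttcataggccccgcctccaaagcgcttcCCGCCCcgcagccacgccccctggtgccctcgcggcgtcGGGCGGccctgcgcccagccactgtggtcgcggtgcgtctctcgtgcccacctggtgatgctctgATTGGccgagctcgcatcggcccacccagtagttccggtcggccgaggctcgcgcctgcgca

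Hsd17b7: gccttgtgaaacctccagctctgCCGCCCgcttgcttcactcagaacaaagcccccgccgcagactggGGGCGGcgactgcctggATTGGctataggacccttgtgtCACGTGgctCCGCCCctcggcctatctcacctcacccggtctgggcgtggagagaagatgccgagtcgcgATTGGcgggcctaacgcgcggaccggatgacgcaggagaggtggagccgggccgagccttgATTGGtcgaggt

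Dhcr7: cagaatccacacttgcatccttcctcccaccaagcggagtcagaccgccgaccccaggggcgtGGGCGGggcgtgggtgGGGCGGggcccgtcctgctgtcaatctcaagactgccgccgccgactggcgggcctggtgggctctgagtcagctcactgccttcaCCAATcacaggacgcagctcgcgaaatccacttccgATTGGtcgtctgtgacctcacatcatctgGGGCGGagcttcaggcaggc

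Windows of 300 bases, with 50 bases after the start added, were listed for 25 of the 29 members (not for Fdps, Fdft1, Sqle and Stard4). An NF-Y box stood in the windows of 21 of the 25 members (84%), against 42.2% of the 11953 tested genes with a window and 41.1% of all 27025 genes listed. At least 2 copies in 1 window were found in 13 members, Mvk with 5 and Hmgcs1 and Nsdhl with 4 each, against 15.7% of the tested genes. A Sp1 box stood in 21 of 25 members (84%), against 64.9% of tested genes and 38.2% of all. The E-box was found in 7 of 25 (28%), against 11.1% and 8.09%. The strict sterol element was found only in Hmgcs1, 1 of 25 (4%), against 1.44% of tested genes and 1.44% of all. These are matches of letters and not measured binding.

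Levels differed widely among the members. Per kb of transcript, Hmgcs1 (HMG-CoA synthase, the entry to mevalonate synthesis) was highest at 141 CPM per kb over the 16 libraries. Msmo1 (a sterol methyl oxidase) followed at 126.8, Sqle (squalene epoxidase, a rate-limiting step) at 89.0, Fdps (farnesyl diphosphate synthase) at 85.2 and Srebf2 (the SREBP2 gene) at 68.2 CPM per kb. The lowest were Mbtps2 (the site-2 protease that releases SREBP2) at 3.05, Idi1 (isopentenyl diphosphate isomerase) at 3.60 and Ggps1 (geranylgeranyl diphosphate synthase) at 5.98 CPM per kb. The remaining members lay between 10.4 CPM per kb in Lss and 54.5 in Cyp51. The coefficient of variation over the 16 libraries was largest for Insig1 (20.3%), Hsd17b7 (20.2%) and Lss (19.9%) and smallest for Mbtps1 (4.77%) and Scap (4.80%). Thus the most variable members were enzymes and the sterol-regulated INSIG gene, and the least variable were the escort protein and a protease of the activation step.

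The members shared much of their variation. The mean deviation of the 29 from their own means was 0.16 ± 0.098 log2 CPM in male WT, 0.043 ± 0.088 in male LKO, -0.0088 ± 0.027 in female WT and -0.20 ± 0.034 in female LKO (SD, n = 4 each). Single libraries lay between 0.072 and 0.30 in male WT, -0.070 and 0.14 in male LKO, -0.040 and 0.023 in female WT, and -0.23 and -0.15 in female LKO. All 4 female LKO libraries lay below all 12 others, with 2 or 3 members each above their own mean, and male WT replicate 1 was highest. Female LKO had the lowest group mean for 27 of the 29 members and male WT the highest for 21. The exceptions to the first count were Scap and Insig2, whose lowest means were in male LKO and female WT.

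**Figure D1:**
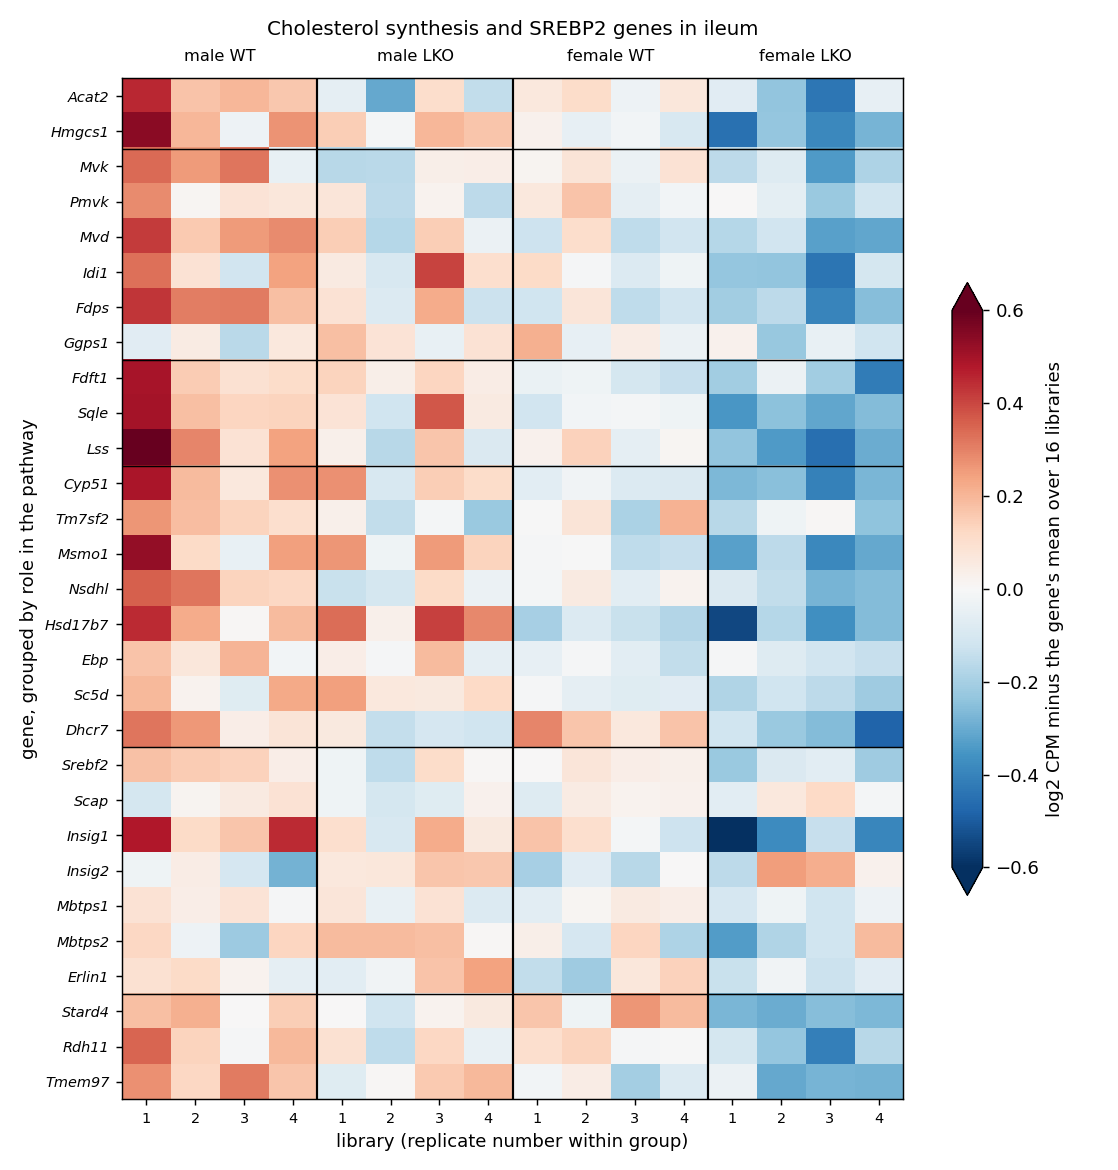
Log2 CPM of each of the 29 genes minus its own mean over 16 libraries, with genes in rows grouped by role (from acetyl-CoA to HMG-CoA, to isoprenoid diphosphates, to lanosterol, to cholesterol, sterol sensing, other SREBP2-linked genes) and libraries in columns by group. Most rows are red in male WT, above all in replicate 1, and blue in female LKO, while Scap and Insig2, whose lowest means are in other groups, do not follow.

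Across the 16 libraries the median Pearson correlation of the 406 pairs of members was 0.631, against -0.00161 over all pairs of the 15598 genes tested, of which the highest 10% began at 0.426. For the 19 enzymes it was 0.706. With the group means removed it was 0.318 for the members and 0.491 for the enzymes. Over all pairs of genes tested it was then -0.000816, and the highest 10% began at 0.422, above the median of the members. The closest pairs were Cyp51 (lanosterol demethylase) with Msmo1 (0.966) and Hmgcs1 with Msmo1 (0.963), then Mvd (mevalonate diphosphate decarboxylase) with Fdps (0.955). The members least like the rest were Scap (correlation with the mean of the other members -0.274), Insig2 (-0.252) and Ggps1 (0.161). These points share libraries and depth, so the values describe these 16 libraries.

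**Figure D2:**
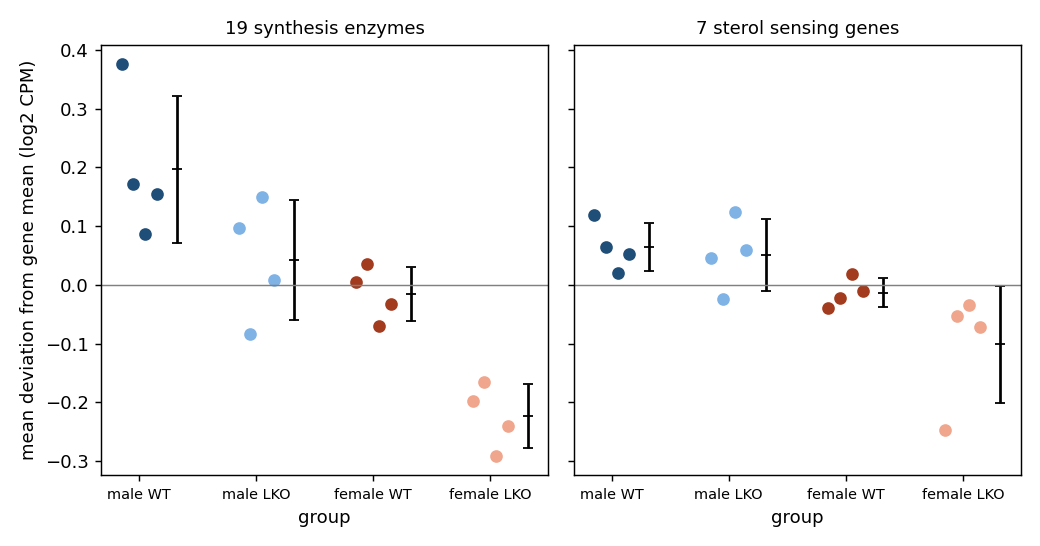
Mean deviation (log2 CPM) per library of the 19 synthesis enzymes (left) and the 7 sterol sensing genes (right), 4 points per group with mean and SD in black. For the enzymes the 4 female LKO libraries lie between -0.29 and -0.16, below every other library, and for the sensing genes female LKO replicate 1 is lowest at -0.25.

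The genotype comparison asked whether loss of hepatic Bcl6 went with a change of these genes in the ileum. Over both sexes, with sex as a covariate, 4 members were called, all lower in LKO: Dhcr7, Lss, Stard4 and Nsdhl. Over all genes 0.269% were called and 0.147% were called lower. A further 14 members were lower and 1, Insig2, was higher at an unadjusted p below 0.05, so that 18 of 29 were lower at that level against 6.57% of all genes. In all, 27 of 29 log2 fold changes were negative with a median of -0.16, where the median of all genes was 0.0007. DESeq2 called 10 members and 1.45% of the genes to which it gave an adjusted p. The edgeR count was 0 without male WT replicate 1 or female WT replicate 1, and 1 (Dhcr7) without male WT replicate 2, male LKO replicate 2 or female LKO replicate 2, 3 or 4. It was 2 without male LKO replicate 4, female WT replicate 2 or 3, or female LKO replicate 1, and 3 to 5 without any other library. Over all genes, 5 and 8 were called where the member count was 0, and 9 to 15 where it was 1. There were 15 to 26 where it was 2 and 35 to 102 where it was 3 to 5, beside 42 with every library.

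Dhcr7 (chromosome 7, 143823167 to 143848410, mm10) encodes the reductase of the last step to cholesterol. It stood at 96.3, 92.2, 79.1 and 81.2 CPM in male WT and at 80.3, 69.6, 71.8 and 71.0 CPM in male LKO. In females it stood at 94.3, 86.5, 80.4 and 86.9 CPM in WT and at 70.9, 66.0, 64.3 and 55.3 CPM in LKO. In males 1 LKO library reached into the WT range, and in females the genotypes did not overlap. Over both sexes Dhcr7 was 21.3% lower in LKO, a log2 fold change of -0.35 (SE 0.059, adjusted p 0.0191).

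Lss (chromosome 10, 76531605 to 76557139) encodes lanosterol synthase, which closes the sterol ring. Its values were 100.1, 78.8, 68.1 and 75.9 CPM in male WT and 65.5, 57.2, 72.1 and 60.5 CPM in male LKO. In females they were 65.4, 70.6, 61.9 and 64.7 CPM in WT and 54.5, 50.6, 46.9 and 52.1 CPM in LKO. The genotypes overlapped in males through 1 library of each group and were separate in females. Lss fell by 0.35 on the log2 scale (SE 0.066, adjusted p 0.0310), or 21.6%.

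Stard4 (chromosome 18, 33199138 to 33213862) encodes a protein that moves cholesterol between membranes and is a known SREBP2 target. It stood at 276.1, 282.9, 244.7 and 270.1 CPM in male WT and at 244.7, 224.3, 247.5 and 253.7 CPM in male LKO. In females it stood at 274.2, 239.4, 292.9 and 278.6 CPM in WT and at 201.5, 198.5, 204.3 and 202.4 CPM in LKO. The 4 female LKO libraries lay closer together than those of any other group and below all 12 others. Over both sexes the log2 fold change was -0.29 (SE 0.055, adjusted p 0.0310).

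Nsdhl (chromosome X, 72918521 to 72958528), a sterol dehydrogenase that acts with Msmo1 in removing the methyl groups of lanosterol, was at the threshold. It stood at 89.2, 86.9, 76.3 and 75.7 CPM in male WT and at 63.5, 64.6, 75.3 and 67.8 CPM in male LKO. Female values were 69.1, 72.3, 66.6 and 70.5 CPM in WT and 65.6, 62.8, 57.3 and 58.0 CPM in LKO. Neither sex showed overlap between the genotypes, and the log2 fold change was -0.23 (SE 0.050) with an adjusted p of 0.04998. This call was made under only 3 of 27 alternative settings.

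The next smallest p-values belonged to Acat2 (acetyl-CoA acetyltransferase, before HMG-CoA) at -0.29 (SE 0.067) on the log2 scale and Mvk (mevalonate kinase) at -0.25 (SE 0.059), both at an adjusted p of 0.0679. By role, the medians were -0.25 for the 2 genes to HMG-CoA, -0.18 for the 6 of the mevalonate steps, -0.19 for the 3 of squalene and lanosterol, -0.17 for the 8 from lanosterol to cholesterol and -0.22 for the 3 other SREBP2-linked genes. For the 7 sterol sensing genes the median was -0.019. Reads of Acat2 and Fdps are uncertain, since both have close copies elsewhere in the genome and reads mapping to several positions were dropped.

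**Figure D3:**
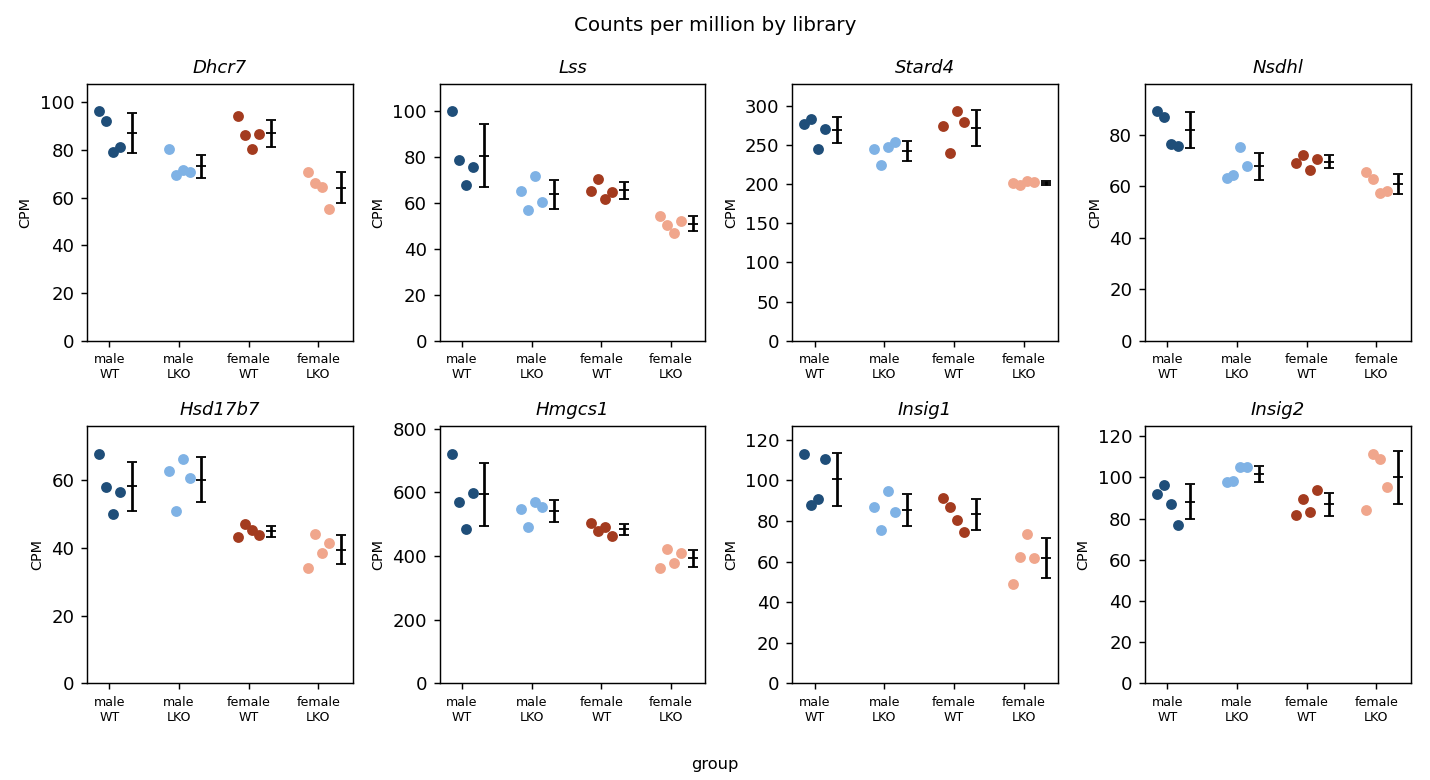
CPM by library for 8 members, 4 points per group with mean and SD in black and axes from 0. Dhcr7, Lss, Stard4 and Nsdhl have lower LKO than WT means in both sexes, Hsd17b7 and Hmgcs1 are higher in males of both genotypes, and Insig1 and Insig2 differ between genotypes in opposite directions.

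The sterol sensing genes did not move together. Insig1, the INSIG gene that SREBP2 itself induces, averaged 100.6 ± 13.1 CPM in male WT, 85.5 ± 7.83 in male LKO, 83.2 ± 7.40 in female WT and 61.7 ± 9.95 in female LKO (SD, n = 4 each), a log2 fold change over both sexes of -0.34 (SE 0.080, adjusted p 0.0926). Insig2, the INSIG gene not under SREBP2 control, averaged 88.2 ± 8.40, 101.6 ± 4.03, 87.0 ± 5.58 and 100.0 ± 12.8 CPM in the same order, a log2 fold change of 0.20 (SE 0.058, adjusted p 0.148). In males the genotypes did not overlap for Insig2, with 77.0 to 96.5 CPM in WT and 97.9 to 105.2 CPM in LKO. Srebf2 averaged 337.9 ± 13.8 CPM in male WT, 306.6 ± 23.1 in male LKO, 317.2 ± 6.20 in female WT and 280.0 ± 15.95 in female LKO, a log2 fold change of -0.16 (SE 0.042, adjusted p 0.115). For Scap, Mbtps1 (the site-1 protease), Mbtps2 and Erlin1 (a membrane protein of INSIG turnover) the log2 fold changes lay between -0.060 and 0.028, and every 95% confidence interval held 0.

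Within males, edgeR and DESeq2 each called 0 of 29 members (0.0527% of all genes were called by edgeR and 0.393% by DESeq2). At an unadjusted p below 0.05, 9 members were lower in LKO, against 2.28% of all genes, and Insig2 was higher. The median log2 fold change was -0.13, with 23 of 29 negative. The smallest p-values belonged to Acat2 at -0.34 (SE 0.097), Nsdhl at -0.27 (SE 0.079), Tm7sf2 (a sterol reductase) at -0.25 (SE 0.076), Fdps at -0.27 (SE 0.083), Dhcr7 at -0.25 (SE 0.076) and Mvd at -0.25 (SE 0.083). The LKO libraries lay wholly below the WT libraries for 4 members, Acat2, Mvd, Tm7sf2 and Nsdhl, against 1.31% of all genes. All 4 male LKO libraries carried higher title numbers than all 4 male WT libraries. Without a covariate 10 members, and 802 genes in all, had an unadjusted p below 0.05. With the title number as a covariate there were 3 members and 311 genes in all. In that fit Acat2 stood at -0.27 and Nsdhl at -0.29, while Tm7sf2 stood at -0.094, Fdps at -0.11, Dhcr7 at -0.13 and Mvd at -0.16.

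Within females, edgeR called 0 of 29 members (0.0392% of all genes). DESeq2 called 7 members, Hmgcs1, Sqle, Lss, Cyp51, Dhcr7, Insig1 and Stard4, and 1.02% of all genes. At an unadjusted p below 0.05, 17 members were lower in LKO, against 6.75% of all genes, and Insig2 was higher. The median was -0.18 with 27 of 29 negative. The smallest p-values belonged to Stard4 at -0.43 (SE 0.067, adjusted p 0.0555), Dhcr7 at -0.44 (SE 0.079, adjusted p 0.0983) and Lss at -0.36 (SE 0.066, adjusted p 0.0983). Hmgcs1 at -0.30 (SE 0.065), Sqle at -0.25 (SE 0.055) and Cyp51 at -0.24 (SE 0.056) came next. The LKO libraries lay wholly below the WT libraries for 16 members, against 3.27% of all genes. Without female WT replicate 2 edgeR called 1 member, Stard4, and 4 genes in all, beside 6 genes with every library. The 16 included Rdh11 (a retinol dehydrogenase that SREBPs induce), which stood at 46.9 to 51.8 CPM in WT and 35.5 to 43.9 CPM in LKO, and Idi1, at 9.60 to 11.02 CPM in WT and 7.47 to 9.46 CPM in LKO.

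**Figure D4:**
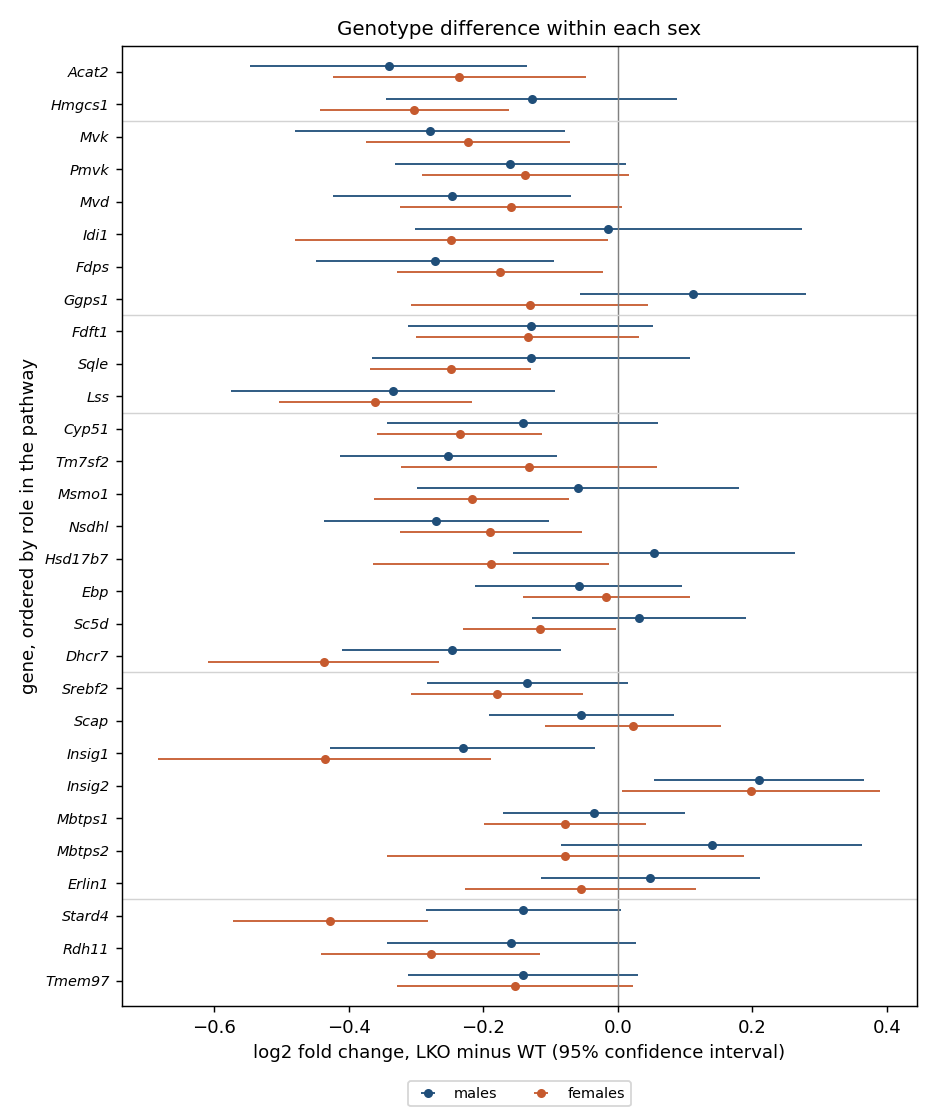
Log2 fold change of LKO against WT with its 95% confidence interval (edgeR) for the 29 genes in males (blue) and females (orange). Most points of both sexes lie below 0, between -0.44 and 0, with Insig2 above 0 in both, and no gene passed an adjusted p of 0.05 within a sex.

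A difference between the sexes in the genotype effect was not detected. In the interaction test, edgeR and DESeq2 each called 0 of 29 members, and edgeR called 0% of all genes. At an unadjusted p below 0.05 there were 2 members against 5.64% of all genes: Stard4, with a male effect minus female effect of 0.28 on the log2 scale (SE 0.092), and Ggps1, with 0.24 (SE 0.11). Hsd17b7 (0.24, SE 0.13), Dhcr7 (0.19, SE 0.11), Sc5d (0.14, SE 0.092) and Hmgcs1 (0.17, SE 0.13) followed. Among the 95% confidence intervals of the 29 interaction terms, the lowest limit of any member was -0.39 and the highest 0.59. For each member, differences within its own interval are not excluded.

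The sex comparison asked how ileal expression differed between males and females of 1 genotype. It uses the same libraries as the genotype comparisons. Over both genotypes, with genotype as a covariate, 14 of 29 members were called, all higher in males, with increases between 11.2% and 40.7%. Over all genes 11% were called and 5.61% were called higher in males. At an unadjusted p below 0.05, 21 members were higher in males, against 14.5% of all genes. The median log2 fold change was 0.17, with 28 of 29 positive. DESeq2 called 16 members and 15.8% of all genes.

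Hsd17b7 (chromosome 1, 169949537 to 169969205), a keto reductase of sterol demethylation, had the largest difference. It stood at 67.9, 58.2, 50.1 and 56.7 CPM in male WT and at 43.3, 47.1, 45.4 and 44.0 CPM in female WT. In LKO it stood at 62.9, 50.9, 66.3 and 60.8 CPM in males and at 34.1, 44.2, 38.5 and 41.6 CPM in females. Every male library exceeded every female library. Over both genotypes it was 40.7% higher in males, a log2 fold change of 0.49 (SE 0.071, adjusted p 0.00138). This fit includes the LKO libraries, whose sex difference in Hsd17b7 was already known when the genes were chosen.

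Hmgcs1 (chromosome 13, 119690351 to 119708260) stood at 721.1, 569.0, 485.1 and 597.9 CPM in male WT and at 504.7, 477.9, 490.3 and 463.5 CPM in female WT. In LKO it stood at 548.9, 490.9, 568.6 and 555.1 CPM in males and at 362.8, 421.1, 378.1 and 408.0 CPM in females. In WT the sexes overlapped through male replicate 3, and in LKO they were separate. The log2 fold change over both genotypes was 0.38 (SE 0.064, adjusted p 0.00258).

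The others with the smallest p-values were Cyp51 at 0.37 (SE 0.058, adjusted p 0.00223), Fdps at 0.33 (SE 0.056, adjusted p 0.00258), Msmo1 at 0.38 (SE 0.069, adjusted p 0.00440) and Sqle at 0.34 (SE 0.064, adjusted p 0.00452). Of the mevalonate steps, Mvd was also called, at 0.30 (SE 0.058, adjusted p 0.00522), whereas Mvk, Pmvk (phosphomevalonate kinase), Idi1 and Ggps1 were not. All 3 genes of the squalene and lanosterol steps were called, with Fdft1 (squalene synthase) at 0.30 (SE 0.059, adjusted p 0.00580) and Lss at 0.31 (SE 0.066, adjusted p 0.00909). From lanosterol to cholesterol 6 of 8 were called. These included Sc5d (sterol desaturase) at 0.22 (SE 0.047, adjusted p 0.00919), Nsdhl at 0.19 (SE 0.050, adjusted p 0.0195) and Ebp (sterol isomerase) at 0.15 (SE 0.044, adjusted p 0.0327). The last 2 of these, like Mbtps2, lie on chromosome X.

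Of the 7 sensing genes only Insig1 was called, at 0.37 (SE 0.080, adjusted p 0.00996), while Srebf2 stood at 0.11 (SE 0.042, adjusted p 0.0894) and Scap at -0.031 (SE 0.042). Of the other SREBP2-linked genes, Tmem97 (the sigma-2 receptor, an SREBP2 target) was called at 0.29 (SE 0.056, adjusted p 0.00537). Stard4 and Dhcr7, called lower in LKO, had sex differences of 0.13 (SE 0.055) and 0.095 (SE 0.059) that did not pass. In WT both stood near equal between the sexes, with Stard4 at 268.4 ± 16.7 CPM in males and 271.3 ± 22.7 in females and Dhcr7 at 87.2 ± 8.35 and 87.0 ± 5.68 CPM (SD, n = 4 each).

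Within WT, edgeR called 0 of 29 members (0.25% of all genes). DESeq2 called 4 members, Mvd, Fdps, Cyp51 and Hsd17b7, and 2.31% of all genes. At an unadjusted p below 0.05, 14 were higher in males, against 6.21% of all genes, and male libraries lay wholly above female libraries for 9, against 4.47%. Fdps had the smallest p, at 0.38 (SE 0.074, adjusted p 0.0532). It stood at 164.2, 150.5, 151.3 and 138.0 CPM in males and at 112.2, 128.2, 109.7 and 112.6 CPM in females, so the sexes did not overlap. Without male WT replicate 4 Fdps was called, in a fit that called 18 genes in all, beside 38 with every library. Mvd at 0.34 (SE 0.078), Hsd17b7 at 0.36 (SE 0.085), Cyp51 at 0.32 (SE 0.082), Tmem97 at 0.28 (SE 0.077) and Fdft1 at 0.29 (SE 0.087) followed.

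Within LKO, 2 members were called, both higher in males: Hmgcs1 at 0.46 (SE 0.068, adjusted p 0.0309) and Hsd17b7 at 0.61 (SE 0.095, adjusted p 0.0395), the latter among the results already known when the genes were chosen. Over all genes 0.0984% were called and 0.059% were called higher in males. At an unadjusted p below 0.05, 17 were higher in males, against 10.9% of all genes, and 12 did not overlap, against 6.41%. The next smallest p-values were those of Msmo1 at 0.45 (SE 0.076, adjusted p 0.0520), Cyp51 at 0.41 (SE 0.076), Sc5d at 0.29 (SE 0.060) and Stard4 at 0.26 (SE 0.057). DESeq2 called 12 members and 7.38% of all genes. When male LKO replicate 1, 3 or 4 or female LKO replicate 1 or 3 was left out, edgeR called 0 members and 7 to 11 genes in all, beside 15 genes with every library. Leaving out male LKO replicate 2 gave 5 members of 63 genes called, female LKO replicate 2 gave 3 of 28, and female LKO replicate 4 gave 7 of 665.

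**Figure D5:**
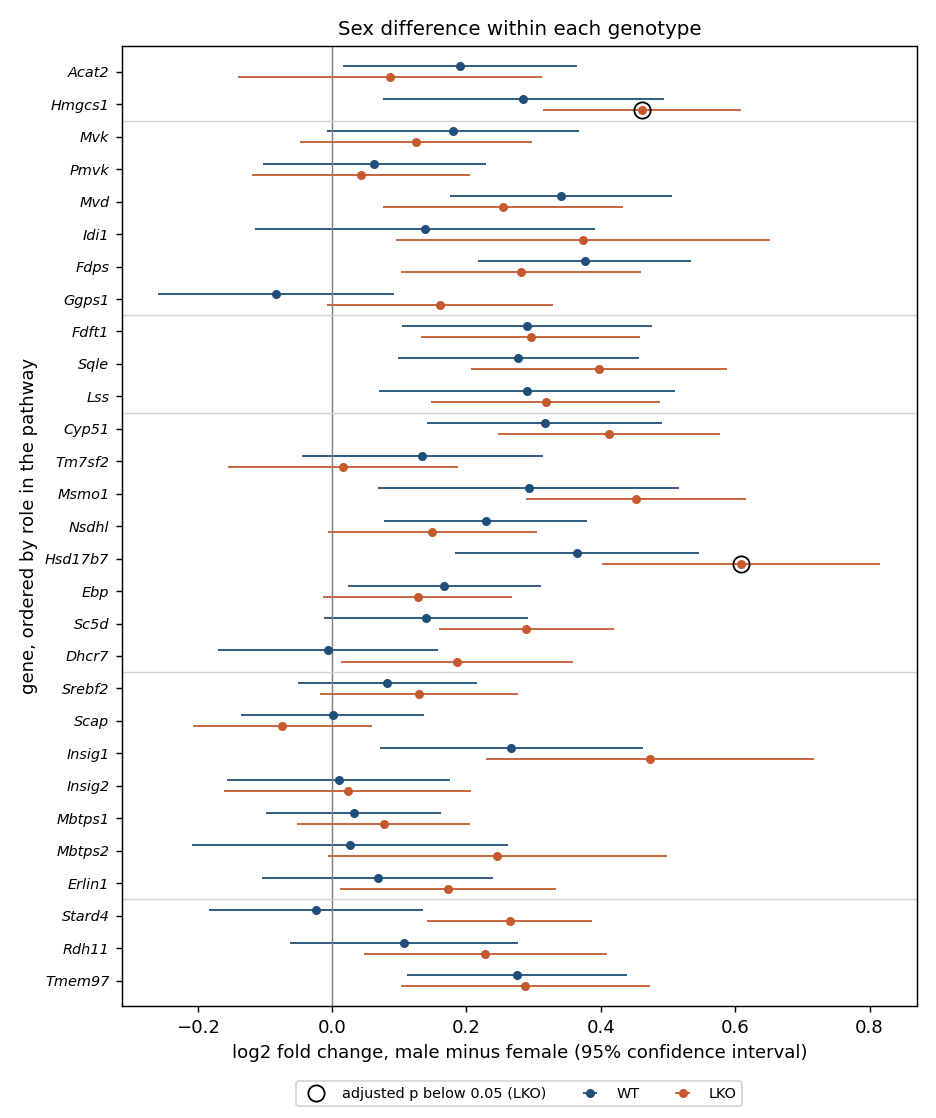
Log2 fold change of males against females with its 95% confidence interval (edgeR) for the 29 genes in WT (blue) and LKO (orange), with circles at an adjusted p below 0.05. Most points lie above 0 in both genotypes, and Hmgcs1 and Hsd17b7 in LKO, at 0.46 and 0.61, are the circled ones.

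Signals of other cell types moved with some groups. Female LKO replicates 2 and 3 and male WT replicate 2 had the highest sums of 6 B cell markers (167.5, 316.5 and 99.1 CPM), whereas the other 13 libraries lay between 14.3 and 59.2 CPM. Female LKO replicates 1 and 4, with B cell sums of 25.6 and 24.6 CPM, had mean member deviations of -0.20 and -0.20 log2 CPM, beside -0.15 and -0.23 in replicates 2 and 3. Without the 3 libraries with the most B cell signal the members called were 0 for genotype over both sexes and 12 for sex over both genotypes, and 19 and 17 members had an unadjusted p below 0.05. Over all genes 4 were called for genotype, beside 42 with every library, and 765 for sex, beside 1723. Without these libraries 1299 genes in all for genotype and 3727 for sex had an unadjusted p below 0.05. The log2 fold changes for genotype were -0.33 for Dhcr7, -0.33 for Lss, -0.25 for Stard4 and -0.21 for Nsdhl, and the median of the members was -0.18, beside -0.16 with every library. Without the 2 female LKO libraries among them, 3 members were called in LKO between the sexes, Hmgcs1, Hsd17b7 and Insig1. Over all genes that fit called 33, beside 15 with every library.

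Markers of Paneth cells summed to 11500 to 13900 CPM in male WT and to 15200 to 21500 CPM in the other groups, with 3 of 6 called higher in LKO males. Between the sexes over both genotypes, 4 of 6 Paneth and 5 of 6 smooth muscle markers were called lower in males. Of T cell markers 1 of 5 and of macrophage markers 1 of 6 were called lower. Of enterocyte markers 1 of 5 and of crypt proliferation markers 1 of 6 were called higher. All 5 enterocyte and all 6 crypt proliferation markers had positive log2 fold changes. Their medians were 0.16 and 0.16, beside 0.17 for the 29 members. Medians were -0.46 for Paneth, -0.38 for smooth muscle, -0.27 for T cell and -0.17 for macrophage markers. Adipocyte markers summed to 114 to 237 CPM in female LKO and to between 77.6 and 213 CPM in the other groups. Goblet cell markers, at 16500 to 21400 CPM over all groups, had no call. The part of these cell types in the member results was not tested.

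Calls in the neighbouring pathways stand beside shares over all genes of 0.269% for genotype over both sexes and 11% for sex over both genotypes. Of 12 genes for the isoprenoid branches (dolichol, ubiquinone and prenylation), 0 were called for genotype over both sexes, with Pdss1 at -0.11 (SE 0.055) and Zmpste24 at -0.10 (SE 0.056) nearest. Between the sexes Nus1, a subunit of the enzyme that starts dolichol synthesis, was called higher in males at 0.33 (SE 0.073, adjusted p 0.0109). Of 12 other regulators of sterol sensing, 0 were called for genotype, with Erlin2 at -0.12 (SE 0.045) and Npc2 at -0.044 (SE 0.040) nearest. Rnf145, a ubiquitin ligase of the sterol sensing machinery, at 0.36 (SE 0.061, adjusted p 0.00258) and Osbp, an oxysterol-binding protein, at 0.15 (SE 0.040, adjusted p 0.0233) were called higher in males.

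Of 12 other SREBP targets, mainly of fatty acid synthesis, 0 were called for genotype and 5 had an unadjusted p below 0.05. These were led by Mmab at -0.23 (SE 0.059, adjusted p 0.110) and Fads1 at -0.26 (SE 0.079, adjusted p 0.178). Over both sexes 9 of the 12 were negative and 3 positive, and within females 7 were negative and 5 positive. Scd1 averaged 245.5 ± 102.8 CPM in female WT and 819.8 ± 499 in female LKO, and Fasn 216.6 ± 38.5 and 348.1 ± 203.3 (SD, n = 4 each). Elovl6, a fatty acid elongase, at 0.29 (SE 0.064, adjusted p 0.0106) and Aldoc, an aldolase, at 0.39 (SE 0.099, adjusted p 0.0195) were called higher in males. Of 8 genes listed for LXR, which include genes of sterol export and of the receptors themselves, 0 were called in either comparison. Abcg1 at 0.33 (SE 0.11) and Abcg5 at -0.16 (SE 0.068) were nearest for genotype. Abcg1 at -0.23 (SE 0.11) and Mylip at -0.24 (SE 0.12) were nearest for sex. The medians over these 4 lists for genotype lay between -0.093 and -0.0016, beside -0.16 for the 29 members.

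The title numbers of the libraries fell into 5 runs of neighbouring numbers, and the labels do not say what a run is. In the first run, with 2 female WT and 1 female LKO libraries, Dhcr7 stood at 94.3 and 86.5 CPM against 70.9 CPM. In the third run, with 1 female WT and 3 female LKO libraries, it stood at 86.9 CPM against 66.0, 64.3 and 55.3 CPM. That run also held 1 male library of each genotype, where Dhcr7 was 81.2 CPM (WT) and 80.3 CPM (LKO), and no other run held males of both genotypes. With the runs as a factor, Dhcr7 had a genotype difference of -0.32 (adjusted p 0.359) and Stard4 one of -0.36 (adjusted p 0.177). In that fit 0 members and 0 genes in all were called for genotype, beside 42 genes in the main fit. For sex, 3 of the 14 were called, Mvd, Fdps and Cyp51, with Hsd17b7 at 0.44 (adjusted p 0.0684). Over all genes 90 were called for sex, beside 1723 in the main fit.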

How the data were processed

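Poly(A) RNA of mouse terminal ileum was sequenced in 16 libraries, grouped by the sex and genotype in their titles. The authors aligned reads to mm10 with STAR 2.5.2, keeping uniquely mapped reads, and deposited raw whole-number counts per gene made with HOMER 4.10 (versions from the submitters' processing notes). The strand option of the counting is not given in the sources used here. Genes with near-identical copies lose reads under unique mapping.

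The counts were tested with the quasi-likelihood test of edgeR 4.0.16 in R 4.3.3, with trimmed mean of M-values scaling and the package's filter on low counts, on the whole table, with Benjamini-Hochberg adjustment. Shares of genes called by DESeq2 are of the genes to which it gave an adjusted p. Genotype was compared within each sex and over both with sex as a covariate, sex was compared within each genotype and over both with genotype as a covariate, and the interaction was tested over 16 libraries. DESeq2 1.42.0, other scalings and filters, a replicate block, the title number as a covariate and leaving out each library were the alternatives. CPM per kb used the transcript length in the deposited table. The log2 CPM for deviations and correlations had a prior count of 2. The scripts were tested on simulated data. Depth sets the precision of low genes, the lowest member count in a library being 133, and intervals cover the spread between libraries.

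The members and the other gene lists were chosen with earlier results of these data known. Members called were given in full, and otherwise the 6 members with the smallest p per comparison were named. Of each pathway list, the genes past the threshold or else the 2 with the smallest p were named. Genes shown with levels beyond these, such as Insig1, Insig2, Srebf2, Rdh11, Idi1, Scd1 and Fasn, were picked for their role or after their values were seen.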

Additional observations from a re-analysis of the deposited data

Results flagged for a closer look

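The spread of the 4 libraries of each group was checked for each of the 29 members with Dixon's ratio at its 95% critical value. Of 116 groups checked, 8 held a library past it, where chance gives about 1 in 20. Male WT replicate 1 stood apart for Acat2 at 46.66 CPM, with the other 3 between 38.1 and 39.1 CPM, for Fdft1 at 218.9 CPM, with the others between 165.5 and 172.6 CPM, and for Sqle at 339.5 CPM, with the others between 263.1 and 272.4 CPM. Female WT replicate 2 stood apart for Mvd at 62.28 CPM (others 52.1 to 53.4) and for Fdps at 128.2 CPM (others 109.7 to 112.6). Cyp51 was low in female LKO replicate 3 at 176 CPM, with the others between 192.8 and 196.2 CPM. Mbtps2 was low in male LKO replicate 4 at 14.54 CPM, with the others between 16.4 and 16.5 CPM. Tmem97 was high in female LKO replicate 1 at 40.48 CPM, with the others between 33.5 and 34.2 CPM. The counts without each of these libraries are among the leave-one-out ranges given with the processing alternatives.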

How the results depend on the processing

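The members that were called, or were among the 6 smallest p-values of a comparison, kept their direction under the alternatives run for them: 970 values also kept their side of the threshold, 100 lost a call and 40 gained one. In males and in the interaction test 0 members were called under all alternatives. In females (0 called) the count was 7 by DESeq2, 2 with no low-count filter, 1 with the newer quasi-likelihood method, 2 with all 16 libraries in the fit and 0 to 1 when 1 library was left out. For genotype over both sexes (4 called) it was 10 by DESeq2, 0 with the title number as a covariate and 0 to 5 when 1 library was left out. The 4 called members differed: Dhcr7 passed in 21 of 27 alternatives (adjusted p 1.06e-04 to 0.359), Lss in 14, Stard4 in 13 and Nsdhl in 3. For sex in WT (0 called) it was 4 by DESeq2, 1 with no low-count filter and 0 to 1 when 1 library was left out. For sex in LKO (2 called) it was 12 by DESeq2, 6 with no low-count filter, 0 with at least 10 counts in every library, 0 with the title number as a covariate, 8 with all 16 libraries in the fit and 0 to 7 when 1 library was left out. For sex over both genotypes (14 called) it was 16 by DESeq2, 12 with upper-quartile scaling, 11 with the title number as a covariate and 13 to 15 when 1 library was left out. Alternatives chosen after seeing the data gave, for genotype over both sexes, 0 with the runs of title numbers as a factor, 0 without the deepest library and male WT replicate 2, and 0 without the 3 libraries with the highest B cell marker sum. For sex over both genotypes the runs gave 3. Over all genes, these fits for genotype called 0, 7 and 4, and the runs for sex called 90. Of uncalled values, Fdft1 for sex in WT was 0.18 in place of 0.29 without male WT replicate 1, and the interaction ran from 0.12 to 0.31 for Dhcr7, 0.083 to 0.28 for Hmgcs1 and 0.089 to 0.22 for Sc5d. Except where libraries or genes were left out, the cause of these shifts was not tested. Over all genes, the number called for genotype over both sexes ran from 0 to 223 and for sex over both genotypes from 90 to 2436. In the order given above, 154, 15, 10, 12 and 0 to 4 genes were called in females, beside 6 in the main fit. For sex in WT the settings gave 257, 71 and 9 to 64 genes, beside 38. For sex in LKO they gave 1058, 139, 1, 10, 403 and 7 to 665 genes, beside 15. Genotype over both sexes had 223, 2 and 5 to 102 genes called, beside 42. Sex over both genotypes had 2436, 1621, 326 and 934 to 1956, beside 1723.

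The replicate numbers did not pair the libraries: the deviations of 16 same-numbered pairs correlated between -0.105 and 0.253. With the number as a replicate block, 2 members were called for genotype over both sexes, Dhcr7 (adjusted p 0.00385) and Lss (0.0348), while Stard4 (0.0581) and Nsdhl (0.0684) were not. Over all genes the block gave 16 calls for genotype over both sexes, beside 42 without it. For sex in LKO 0 members were called (Hmgcs1 0.0711, Hsd17b7 0.0851), with 22 genes called in all, beside 15 without the block. No other count of members called moved.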
